A study of Mus musculus with 165 samples.

Results

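The second hour of OHT treatment in IL3 was followed by comparing the libraries labelled IL3-OHT 2h with those labelled IL3-OHT 1h, 3 libraries a side, which are 2 of the 56 combinations of cytokine condition and time point in the series. PUER cells are an IL3-dependent myeloid progenitor line from PU.1-null (Spi1-/-) mice, and they express a PU.1-estrogen receptor fusion protein (PUER). It is held inactive until 4-hydroxy-tamoxifen (OHT) is added. Cells of both groups had this genotype and construct, were kept in 5 ng/mL of IL3 and received 200 nM of OHT, and they differed in the time since OHT, 1 h or 2 h. The poly(A) RNA of each sample was sequenced, and the values are normalized counts per gene. The study seeded each time point in a plate of its own. No library of the series is labelled as taken at these hours without OHT, so that hours after OHT, plate and handling cannot be told apart. The replicates were separate samples of the same line. The p-values and standard errors measure the spread between replicates as estimated over all 54 groups fitted, not over these 6 libraries alone.

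PU.1 is an ETS-family transcription factor needed for macrophage and neutrophil development, and it activates genes of myeloid receptors, adhesion molecules and enzymes. Immediate-early genes, such as those of the AP-1 and EGR transcription factors, are transcribed within minutes of a cytokine, serum or stress signal without new protein synthesis, and their transcripts are short-lived. They are followed by feedback regulators, among them phosphatases that switch off the ERK kinases and proteins that destroy short-lived mRNAs, and later by the genes that carry out the new cell state.

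Between 16961736 and 25259524 reads on genes stood behind each of the 6 libraries. The floor of 3 reads corresponded to a normalized count of 2.93 to 4.19, and floors cover counting error alone. The third IL3-OHT 2h library stood apart from the other two: the chi-square per gene between a pair of libraries (1 where counting error is the sole difference) was 15.8 and 19.3 in its pairs, against 4.72 between the other two and 3.21 to 7.11 among the 1h libraries. It also had the largest share of mitochondrially encoded reads, 2.14% against 1.58% to 1.84% in the other 5 libraries. Counts of DEGs over all genes and in each list are therefore also given without it where they differ, while counts shared with other steps use all 3 of the 2h libraries.

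Of 17414 genes tested, 2640 were differentially expressed genes (DEGs, adjusted p under 0.05 by limma and an absolute log2 fold change over 0.58). At 2h, 1103 genes were higher (6.33% of the genes tested) and 1537 were lower (8.83%). These shares are the background for the counts of each gene list below. The rises had a median log2 fold change of 0.86 and the falls one of 0.93 in size. Falls were more frequent among the larger changes, with 690 falls against 425 rises past a log2 fold change of 1. The 3 libraries of one time point lay wholly above the 3 of the other for 1024 of the 1103 rises and 1389 of the 1537 falls. Over all genes tested, 19.5% had every 2h library above every 1h library and 24.1% had every 2h library below. The median log2 fold change of all genes tested was -0.03. Without the third 2h library, 1032 genes were higher and 1407 lower. DEGs with a mean under 10 normalized counts at both time points numbered 371, and 47 of the 2640 had at most 3 reads in each library.

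**Figure D1:**
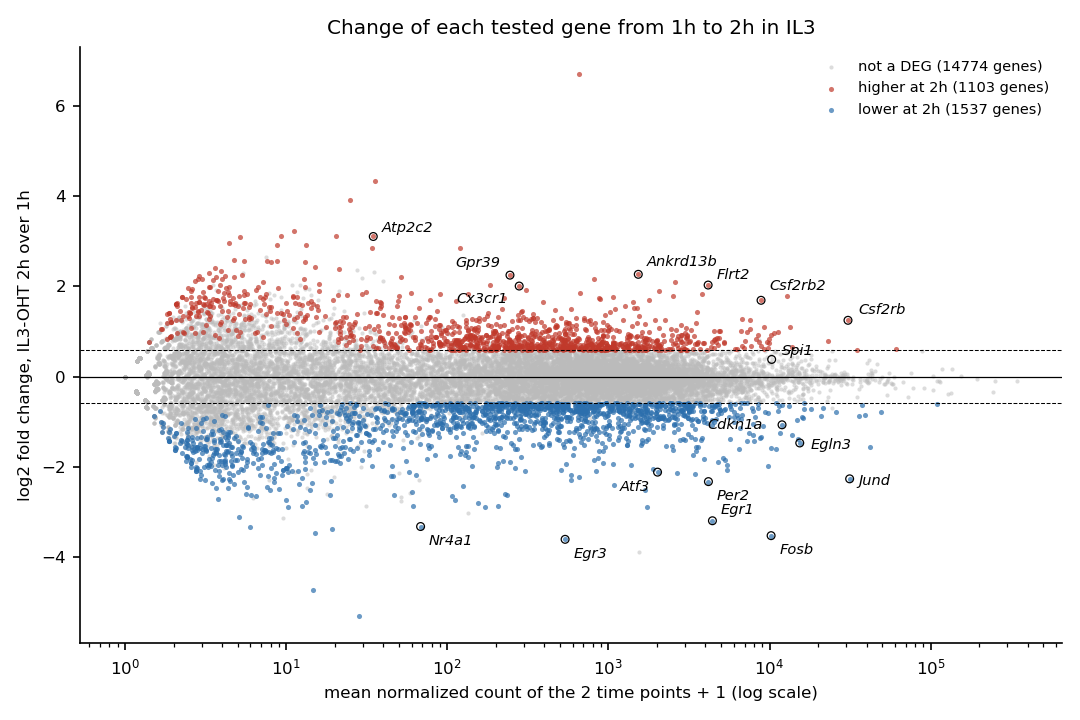
Log2 fold change of each of the 17414 genes tested (y axis, IL3-OHT 2h over 1h) against the mean normalized count of both time points + 1 (x axis, log scale). Red points are the 1103 genes higher at 2h, blue points the 1537 genes lower, and dashed lines mark the fold-change threshold of 0.58. The immediate-early genes Fosb, Egr1 and Jund lie far below 0 at high counts, and Csf2rb and Csf2rb2 lie above.

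Among DEGs with a mean of at least 50 at either time point, non-overlapping groups and an established symbol, the 4 largest falls were those of immediate-early genes. Egr3, which encodes a zinc-finger factor of the EGR family, had normalized counts of 1009, 1013 and 954 at 1h and 97.8, 94.6 and 56.3 at 2h (log2 fold change -3.61 ± 0.57 SE, adjusted p = 4.98e-08). Fosb, which encodes an AP-1 subunit that pairs with JUN proteins, stood at 17926, 19210.1 and 19327 at 1h and 1720.4, 1665 and 1520.1 at 2h (log2 fold change -3.53 ± 0.18 SE, adjusted p = 2.94e-35). Both fell by about an order of magnitude, and the separation of the time points is fixed by the rule. The orphan nuclear receptor gene Nr4a1 had 119.7, 117.5 and 128.8 at 1h and 16.8, 15.4 and 5.36 at 2h (log2 fold change -3.32 ± 0.35 SE, adjusted p = 7.03e-15). The third 2h library was the lowest of the 6.

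AP-1 is a family of dimers of FOS, JUN, ATF and MAF proteins. Of its 13 genes tested, 10 were lower at 2h and 0 higher, and their median log2 fold change was -1.42. Jund, whose product is the JUN protein of resting cells, fell from 51733, 54165 and 49285 to 14241, 11669 and 7473 (log2 fold change -2.27 ± 0.16 SE, adjusted p = 9.37e-25). The spread at 2h was wide, with the third library lowest, but the highest 2h library was far below the lowest 1h library. Atf3, a stress-induced family member, had 3326, 3161 and 3344 at 1h and 809, 803 and 660.3 at 2h (log2 fold change -2.12 ± 0.15 SE, adjusted p = 2.09e-24), and the small MAF gene Maff had 1222, 1279 and 1325 at 1h and 389, 336 and 333 at 2h (log2 fold change -1.85 ± 0.18 SE, adjusted p = 2.31e-16). Jun was at 10310.2, 10767 and 10562 at 1h and 4348, 3998 and 3537 at 2h (log2 fold change -1.42 ± 0.09 SE, adjusted p = 2.28e-29) and Fos at 1254, 1398 and 1427 at 1h and 595, 609.5 and 496 at 2h (log2 fold change -1.26 ± 0.12 SE, adjusted p = 2.84e-17). Fos and Jun form the classical AP-1 dimer. Fosl1, Fosl2, Junb and Mafk were the other members called lower. Without the third 2h library, 10 of 13 were still lower and 0 higher.

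The EGR list holds 4 EGR factors and the NAB corepressors that bind them. Its 4 called members, of 6 tested, were the EGR genes, and the list's median was -2.32. That median lies between the values of Egr2 and Egr4 and moved with the handling of low counts, to -1.64 with a pseudocount of 5 and -2.91 with edgeR. Egr1 stood at 7665, 8367 and 7879.6 at 1h and 973, 867 and 778 at 2h (log2 fold change -3.19 ± 0.18 SE, adjusted p = 1.18e-32). Egr2, which is required in macrophage and Schwann cell programs, had 427, 417 and 367 at 1h and 71.3, 72.6 and 52.2 at 2h (log2 fold change -2.62 ± 0.22 SE, adjusted p = 4.91e-20). Egr4 passed the test at counts near the floor, with 5.49, 4.24 and 0.976 at 1h and 0 in each 2h library, and it was not called by DESeq2. The counts for the other 2 members, Nab1 and Nab2, did not pass the test.

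**Figure D2:**
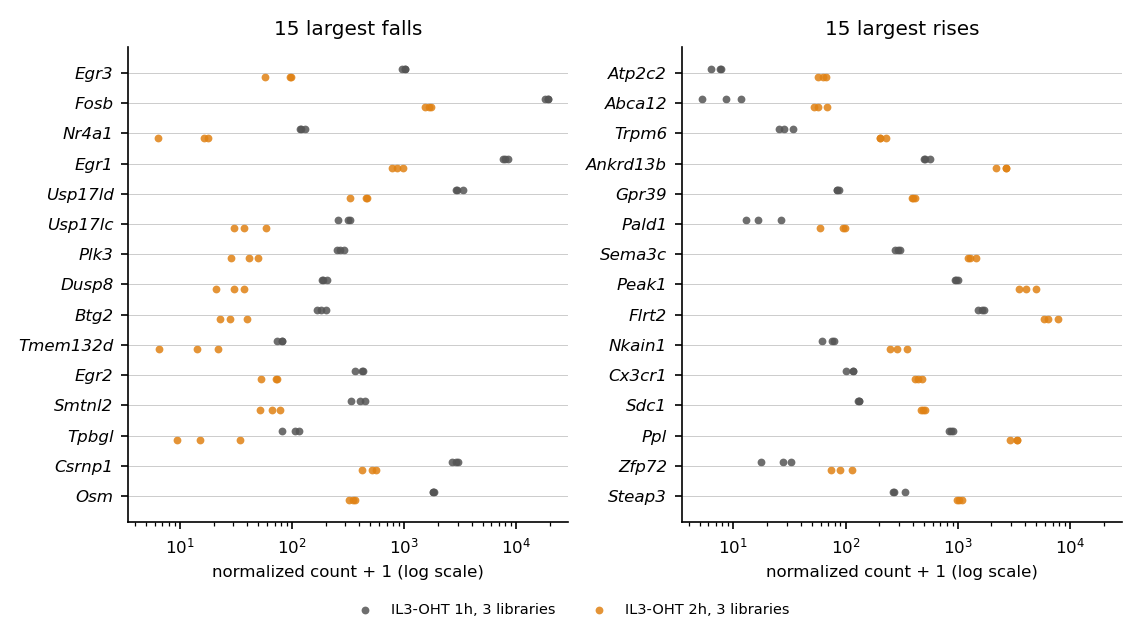
Normalized count + 1 (x axis, log scale) of the 15 genes with the largest fall (left) and the 15 with the largest rise (right) in each library, grey for the 3 IL3-OHT 1h libraries and orange for the 3 IL3-OHT 2h libraries. The genes were chosen by these values and by non-overlapping groups, so that the separation of the colours is a consequence of the choice, while the spread within each colour shows the replicate error.

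Of 34 other immediate-early genes tested, 22 were lower at 2h and 0 higher, with a median of -0.94. Plk3, a stress-responsive kinase gene, had 251, 265 and 293 at 1h and 48.9, 27.5 and 40.2 at 2h (log2 fold change -2.80 ± 0.26 SE, adjusted p = 7.06e-18). Btg2, an antiproliferative gene whose product recruits the deadenylase complex, had 181.1, 201.2 and 167.9 at 1h and 39.1, 22.01 and 26.8 at 2h (log2 fold change -2.64 ± 0.38 SE, adjusted p = 2.34e-09). Csrnp1, which encodes a cysteine- and serine-rich nuclear protein, fell from 2645, 2884 and 3034 to 559, 515 and 423 (log2 fold change -2.52 ± 0.11 SE, adjusted p = 7.40e-41). These 3 genes were among the 15 largest falls, which were chosen for time points without overlap. Srf, whose product drives many immediate-early promoters, had 4990.4, 5187 and 5261 at 1h and 1607, 1729 and 1304 at 2h (log2 fold change -1.74 ± 0.10 SE, adjusted p = 6.97e-32), and Ier2 had 4764, 4893 and 5134 at 1h and 2116, 2039.9 and 1594 at 2h (log2 fold change -1.37 ± 0.08 SE, adjusted p = 3.04e-29). Zfp36, the gene of tristetraprolin, which binds AU-rich mRNAs and marks them for decay, had 888, 779 and 779 at 1h and 171.9, 227 and 188.8 at 2h (log2 fold change -2.06 ± 0.08 SE, adjusted p = 4.78e-45). Trib1, Ptgs2, Sgk1 and the Btg1, Ier5 and Zfp36l1 genes were also among the 22. Without the third 2h library, 21 were lower and 1 higher.

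Usp17ld, Usp17lc, Tmem132d, Smtnl2 and Tpbgl, also among the 15 largest falls, belonged to no list. Usp17ld and Usp17lc, deubiquitinase genes that are near-identical copies and whose reads can be shared, had log2 fold changes of -2.89 and -2.89 at counts of 3070.3 and 301 at 1h and 417 and 41.1 at 2h (means). Tmem132d, Smtnl2 and Tpbgl had log2 fold changes of -2.63, -2.60 and -2.56.

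Negative feedback on ERK signalling comes from dual-specificity phosphatases (DUSPs) and from Sprouty proteins. Of 20 such genes tested, 10 were lower and 2 higher at 2h (median -0.67), and the count was the same without the third 2h library. Dusp8, whose product acts on the stress kinases JNK and p38, had 186.6, 184.2 and 202.99 at 1h and 29.3, 36.3 and 20.1 at 2h (log2 fold change -2.74 ± 0.34 SE, adjusted p = 1.36e-11). Dusp10 had 1415, 1385 and 1419 at 1h and 489, 462 and 388 at 2h (log2 fold change -1.66 ± 0.23 SE, adjusted p = 9.36e-10) and Dusp4, an ERK phosphatase gene of the nucleus, had 1273, 1367 and 1307 at 1h and 412, 453 and 391 at 2h. Dusp6, the cytoplasmic ERK phosphatase gene, had 7603, 7641 and 7681 at 1h and 4571, 4391 and 4327 at 2h (log2 fold change -0.79 ± 0.07 SE, adjusted p = 2.15e-19), a smaller change on tight replicates. Sprouty and pleckstrin-homology genes of the list were lower by a larger ratio. Spry2 had 1285, 1221 and 1171 at 1h and 542, 536 and 493 at 2h (log2 fold change -1.23 ± 0.08 SE, adjusted p = 8.62e-26), and Phlda1 had 6054, 6126 and 6099 at 1h and 1902, 1888 and 1386 at 2h (log2 fold change -1.83 ± 0.10 SE, adjusted p = 6.87e-34). Dusp7 and Etv5 were the 2 members called higher.

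Stretches directly upstream of RefSeq transcription starts (GRCm38.p6) are shown for 4 of the genes that fell, because they hold intact letters of 3 of the 9 motifs searched: the cAMP response element (TGACGTCA, bound by CREB and ATF dimers), the AP-1 site (TGANTCA) and the EGR site (GCGTGGGCG). Capitals mark the matches on either strand, each stretch is written 5′ to 3′ on the strand of its gene, and its last base precedes the start.
Dusp8 (chr7:142095285-142095414, minus strand): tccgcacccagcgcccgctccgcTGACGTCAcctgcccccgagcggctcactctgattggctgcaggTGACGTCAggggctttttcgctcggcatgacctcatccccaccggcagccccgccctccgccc
Btg2 (chr1:134079156-134079345, minus strand): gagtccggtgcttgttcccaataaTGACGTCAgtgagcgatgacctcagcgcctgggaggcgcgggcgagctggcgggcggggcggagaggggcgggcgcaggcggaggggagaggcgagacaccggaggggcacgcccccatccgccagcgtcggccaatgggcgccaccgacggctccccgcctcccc
Maff (chr15:79347410-79347519, plus strand): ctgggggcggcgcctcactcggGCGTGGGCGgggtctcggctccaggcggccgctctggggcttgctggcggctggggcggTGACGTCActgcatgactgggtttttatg
Csrnp1 (chr9:119983024-119983148, minus strand): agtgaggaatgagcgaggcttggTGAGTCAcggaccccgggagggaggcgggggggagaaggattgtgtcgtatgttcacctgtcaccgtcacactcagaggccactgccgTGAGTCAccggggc
Dusp8 held 2 cAMP response elements, 107 and 63 bases before the start. Maff had 3 RefSeq windows and Csrnp1 had 4, and the ones shown are those that held matches. A gene was counted as holding a motif if any of its windows of 250 upstream bases did. Of the 46 genes called lower in the AP-1, EGR, immediate-early and ERK feedback lists, 39 had a window, and 5 of these (12.8%) held a cAMP response element: Btg2, Dusp1, Dusp8, Errfi1 and Maff. The share among all 27025 genes with a window was 1.77%, and among the 11654 tested genes with a window it was 2.81%. The letters searched for an AP-1 site, which take any middle base and so include TGAATCA and TGATTCA, were held by 2 of the 39 (5.13%). They were in 7.82% of all genes and in 6.17% of the tested genes. The EGR site was held by 1 of the 39 (2.56%), by 0.622% of all genes and by 1.15% of the tested genes. The E box (CACGTG) was in 7 of the 39 (17.9%) and 9.18% of the tested genes, and the STAT dimer site (TTCNNNGAA) in 4 of the 39 (10.3%) and 7.30% of the tested genes. None of the 39 held the letters searched for an SRF site in 1 fixed form, a PU.1 site (GAGGAAGT), an ETS site (CCGGAAGT) or an NF-kB site, which were in 0.0429%, 2.99%, 6.05% and 1.42% of the tested genes. These are counts of letters in a window, with no test, and the 4 genes printed were chosen after the matches were seen. The cAMP response element was in 3.11% of all 1094 falls with a window and in 1.92% of the 833 rises with one. A comparison of these shares is void, since no more than 66.9% of the tested genes had a window. The same limit holds for the shares of the 39 genes set beside those of the tested genes.

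Parts of the cytokine, STAT5 and NF-kB lists were lower at 2h, with 8 of 18, 3 of 15 and 3 of 19 tested genes, against 8.83% of all genes tested. Osm, the gene of oncostatin M and a direct STAT5 target, had 1805, 1820.0 and 1839 at 1h and 349, 362 and 324 at 2h (log2 fold change -2.40 ± 0.13 SE, adjusted p = 7.15e-33). Socs1, which encodes an inhibitor of JAK kinases, had 909, 918 and 920.3 at 1h and 345, 287 and 211.6 at 2h (log2 fold change -1.73 ± 0.18 SE, adjusted p = 2.05e-15), and the survival kinase gene Pim3 had 874, 878 and 855 at 1h and 439, 382 and 328 at 2h (log2 fold change -1.19 ± 0.09 SE, adjusted p = 1.40e-21). Of 15 STAT5 and SOCS genes tested, these 3 were lower, and Bcl2l1 was higher. Among the classical STAT5 targets, Cish had 6865, 6823 and 7392 at 1h and 6202, 6365 and 5041 at 2h (log2 fold change -0.27) and Pim1 had 14466, 14209 and 14784 at 1h and 12631, 12377 and 9419 at 2h (log2 fold change -0.35), both below the fold-change threshold. Of 18 chemokine and cytokine genes tested, 8 were lower and 0 higher, 6 and 0 without the third 2h library, and 5 were lower without the second 1h library. Ccl3, a neutrophil and macrophage attractant, had 3896, 3829.5 and 3989.6 at 1h and 2661, 2550.4 and 2099 at 2h (log2 fold change -0.69 ± 0.09 SE, adjusted p = 3.19e-10), Cxcl3 had 1315, 1303 and 1361 at 1h and 719.8, 679 and 625 at 2h (log2 fold change -0.98 ± 0.25 SE, adjusted p = 6.57e-04) and Lif had 130.6, 132 and 149.3 at 1h and 64.3, 64.9 and 54.9 at 2h (log2 fold change -1.15 ± 0.38 SE, adjusted p = 0.00842). Tnf had 334, 264 and 308 at 1h and 316, 288 and 248 at 2h (log2 fold change -0.09 ± 0.10 SE, adjusted p = 0.557), with overlapping groups. Il1b and Il10, also called lower, were at 35.1 to 40.2 and at 0.976 to 8.78 at 1h, and both calls were lost in at least 5 of the alternative analyses. Of 19 genes of NF-kB factors and their inhibitors, 3 were lower (Nfkbiz, Rel and, except without the third 2h library, Nfkbib) and 1 higher (Nfkbie), or 3 and 2 without the third 2h library. The call of Nfkbie was lost with the compared groups alone (adjusted p = 0.0775 by limma) and without the second 2h library (log2 fold change 0.55). Nfkbia, which encodes the main NF-kB inhibitor, had 6580.0, 6551 and 6761 at 1h and 5720.3, 5486 and 4785 at 2h (log2 fold change -0.32) and Tnfaip3 had 288, 309 and 338 at 1h and 209.6, 214.6 and 232 at 2h (log2 fold change -0.51), neither past the fold-change threshold.

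Kruppel-like factors, zinc-finger proteins of which several are immediate-early, had 7 of 13 tested genes lower and 0 higher. Klf2, a quiescence factor, had 1574, 1503 and 1705 at 1h and 829, 811 and 621 at 2h (log2 fold change -1.09 ± 0.15 SE, adjusted p = 2.04e-10), Klf9 had 9193, 8994 and 8189 at 1h and 4872, 4415 and 4389 at 2h (log2 fold change -0.95 ± 0.07 SE, adjusted p = 1.97e-24) and Klf5 had 2831, 2672 and 2471 at 1h and 1537, 1407 and 1249.6 at 2h (log2 fold change -0.93 ± 0.09 SE, adjusted p = 8.24e-17). Klf6 had 16119.5, 16940.1 and 15190.2 at 1h and 10282, 9278 and 11475 at 2h (log2 fold change -0.64 ± 0.05 SE, adjusted p = 1.85e-20), and its call was lost without the second 2h library. Clock and glucocorticoid-responsive genes had 7 of 21 lower and 1 higher, or 9 and 1 without the third 2h library. Per2, a repressor of the circadian clock, had 6793, 6826 and 7269.6 at 1h and 1435, 1445 and 1284 at 2h (log2 fold change -2.33 ± 0.06 SE, adjusted p = 2.66e-60), with replicates within a few percent of each other at 1h. Per1, a second period gene, and further clock factors also had every 2h library below every 1h library. Per1 had 1018, 1079.9 and 1127 at 1h and 277, 266 and 162 at 2h (log2 fold change -2.23 ± 0.16 SE, adjusted p = 1.13e-23), Dbp, a clock output factor, had 321, 334 and 297 at 1h and 127.2, 115.5 and 79.02 at 2h (log2 fold change -1.58 ± 0.13 SE, adjusted p = 2.09e-20), and Bhlhe40 had 11703, 11154 and 11959 at 1h and 4683, 4594 and 3707 at 2h (log2 fold change -1.43 ± 0.13 SE, adjusted p = 8.25e-18). Per3, the remaining period gene, named after its values were seen, had a log2 fold change of -0.53 ± 0.07 SE, below the fold-change threshold. The clock activator Arntl was the member that rose, while the glucocorticoid target Tsc22d3 had 901, 798 and 845 at 1h and 883, 903 and 738 at 2h (log2 fold change -0.02 ± 0.07 SE, adjusted p = 0.897).

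Regulators of mRNA decay and other short-lived proteins had 12 of 23 tested genes lower and 1 higher (median -0.59), 11 and 2 without the third 2h library. Besides Zfp36, the list's falls included Kdm6b, a histone H3K27 demethylase gene, with 7938, 8219 and 8589 at 1h and 2372, 2577 and 2006 at 2h (log2 fold change -1.84 ± 0.11 SE, adjusted p = 8.50e-30). Tob1, a partner of the deadenylase complex, had 5295, 5419 and 5376 at 1h and 1869, 1809.9 and 1764 at 2h (log2 fold change -1.56 ± 0.04 SE, adjusted p = 2.08e-60). Pnrc1, a decapping and nuclear receptor cofactor gene, had 3529, 3336 and 3338 at 1h and 1255, 1210.3 and 1073 at 2h (log2 fold change -1.53 ± 0.10 SE, adjusted p = 1.67e-28). In each of these 3 genes the time points did not overlap. Pdcd4 had 906, 956 and 821 at 1h and 625, 471 and 576 at 2h (log2 fold change -0.69), a call that was lost without the second 2h library.

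Of the glycolysis and hypoxia genes, 14 of 32 were lower and 0 higher, with a median of -0.47, and 13 of 32 without the third 2h library. Egln3, an oxygen-sensing prolyl hydroxylase gene, had 22562, 23090.4 and 22267 at 1h and 8420.4, 8201 and 7892 at 2h (log2 fold change -1.47 ± 0.13 SE, adjusted p = 5.12e-18). Bnip3, a mitophagy receptor gene, had 13283, 12849 and 12119 at 1h and 5209, 4723 and 5301 at 2h (log2 fold change -1.33 ± 0.18 SE, adjusted p = 1.96e-10), and Slc2a1, the GLUT1 glucose transporter gene, had 19015, 19149.7 and 20448 at 1h and 8567, 8337 and 6943 at 2h (log2 fold change -1.30 ± 0.16 SE, adjusted p = 1.15e-11). Vegfa had 13869, 13739 and 14171 at 1h and 9435, 9028 and 8206 at 2h (log2 fold change -0.65 ± 0.13 SE, adjusted p = 1.23e-05). Egln3 is both a target and a limiter of hypoxia-inducible factors. The largest log2 fold change of the list was that of the low-count gene Adm, which stood at 34.03, 24.4 and 17.6 at 1h and 12.6, 5.50 and 2.68 at 2h, a call lost with the compared groups alone. The glycolytic enzyme genes Pfkm, Pfkl, Tpi1 and Gpi1 were among the 14.

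Growth-arrest and apoptosis genes moved in both directions. Of 16 p53 targets tested, 7 were lower and 0 higher, 6 and 0 without the third 2h library. Cdkn1a, the gene of the cell-cycle inhibitor p21, had 15885, 16565 and 16109 at 1h and 7984, 7964 and 7236 at 2h (log2 fold change -1.07 ± 0.07 SE, adjusted p = 2.79e-26), Phlda3 had 908, 821 and 836 at 1h and 429, 391 and 285 at 2h (log2 fold change -1.23 ± 0.12 SE, adjusted p = 3.23e-16) and Sesn2 had 1978, 2078 and 2249 at 1h and 1131, 1146 and 956 at 2h (log2 fold change -0.97 ± 0.11 SE, adjusted p = 1.39e-12). Mdm2, the p53 ubiquitin ligase gene, had 15208, 15239 and 14099 at 1h and 11639, 10896 and 12255 at 2h (log2 fold change -0.36), below the fold-change threshold. Of 16 BCL2 family genes, 3 were higher and 3 lower, 3 and 2 without the third 2h library. Bcl2l1, the gene of the survival protein BCL-XL, had 1867, 1805 and 1962 at 1h and 3621, 3778 and 3184 at 2h (log2 fold change 0.91 ± 0.07 SE, adjusted p = 8.40e-24), and Mcl1, the gene of another survival protein with a short half-life, had 50475, 53123 and 48004 at 1h and 29893, 27972 and 25743 at 2h (log2 fold change -0.86 ± 0.08 SE, adjusted p = 1.60e-16). Bcl2 had 411, 355 and 363 at 1h and 236, 220.1 and 250.4 at 2h (log2 fold change -0.67 ± 0.10 SE, adjusted p = 2.17e-09). Bcl2l11, the gene of the death protein BIM, had 4412, 4194 and 4046 at 1h and 4752, 4767 and 4879 at 2h (log2 fold change 0.19).

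In the cell-cycle lists, 4 of 36 DNA replication genes, 2 of 38 mitosis genes and 3 of 15 G1 genes were DEGs, against 15.2% of all genes tested. Of the replication genes, 2 were higher, among them Gins3, and 2 lower, Rrm2 and Pold1. Of the mitosis genes, 1 was higher (Kif20b) and 1 lower (Cdc25b). With the third 2h library left out, 2 replication genes were higher and 3 lower, and 0 mitosis genes were higher and 2 lower. The mitotic cyclin gene Ccnb1 and the replication clamp gene Pcna did not pass the test, although their 2h libraries lay above their 1h libraries. Ccnb1 had 785, 809.9 and 779 at 1h and 864, 855 and 857 at 2h (log2 fold change 0.12 ± 0.08 SE, adjusted p = 0.278) and Pcna had 3982, 3916 and 3929 at 1h and 4306, 4153 and 4434 at 2h (log2 fold change 0.12 ± 0.05 SE, adjusted p = 0.0545). Among the G1 genes, Ccnd3, a D-type cyclin gene, was lower, with 5697, 5858 and 5781 at 1h and 3150.1, 3189.6 and 2608 at 2h (log2 fold change -0.96 ± 0.06 SE, adjusted p = 5.31e-28), as were Cdkn1a and Cdkn2b. The call of Cdkn2b was lost in 4 alternative analyses, among them the one without the third 2h library (log2 fold change -0.73, adjusted p = 0.216 by limma).

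TGF-beta and BMP feedback genes were divided, with 5 of 16 lower and 4 higher. For this list and those that follow, the shares over all genes tested were 8.83% lower and 6.33% higher. Inhibitors of the pathway stood on both sides. Smad7, the inhibitory SMAD gene, had 1867, 2049.8 and 1850.3 at 1h and 816, 755 and 585 at 2h (log2 fold change -1.43 ± 0.11 SE, adjusted p = 7.08e-22). The signal-transducing Smad3 went the other way, with 451, 502 and 486 at 1h and 1079, 1102 and 1051 at 2h (log2 fold change 1.17 ± 0.08 SE, adjusted p = 2.32e-27), and so did Pmepa1, with 1722, 1732 and 1714 at 1h and 3715, 3646 and 3197 at 2h (log2 fold change 1.03 ± 0.12 SE, adjusted p = 3.40e-12). Of 26 interferon-stimulated genes, 5 were lower and 2 higher (4 and 3 without the third 2h library), and Tap1, a peptide transporter gene, had 1366, 1457 and 1479 at 1h and 655, 592 and 524 at 2h (log2 fold change -1.28 ± 0.07 SE, adjusted p = 6.82e-36). Of 21 heat shock genes, Dnajb1 (2601, 2738 and 2655 at 1h and 1205, 1148 and 1051 at 2h), Dnajb4 and Hspa1a were lower and Bag3 higher, and 4 were lower and 1 higher without the third 2h library. The call of Bag3 was lost without the second 2h library and without the second 1h library. Reads of Hspa1a can be shared with its near-identical neighbour Hspa1b. Of 27 cholesterol genes, 3 were lower, among them Insig1 and Pmvk, and the sterol exporter gene Abcg1 rose from 7137, 7146 and 7309 to 14020.5, 14168 and 14010.4 (log2 fold change 0.97 ± 0.06 SE, adjusted p = 5.17e-27). The list had 3 lower and 2 higher without the third 2h library.

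By the same rule, the 15 largest rises belonged to no list apart from Cx3cr1. Atp2c2, a Golgi calcium and manganese pump gene, had 6.59, 5.29 and 6.83 at 1h and 65.7, 61.6 and 56.3 at 2h (log2 fold change 3.11 ± 0.63 SE, adjusted p = 1.72e-05). Trpm6, a magnesium channel gene, had 27.4, 24.4 and 33.2 at 1h and 199.9, 201.3 and 230.4 at 2h (log2 fold change 2.86 ± 0.67 SE, adjusted p = 1.82e-04), and Abca12, a lipid transporter gene, had 7.68, 4.24 and 10.7 at 1h and 55.9, 51.7 and 66.96 at 2h (log2 fold change 2.86 ± 0.51 SE, adjusted p = 8.24e-07). At 1h these 3 genes were below 34 normalized counts, and at 2h above 51. Ankrd13b, which encodes a ubiquitin-binding ankyrin-repeat protein, had 502, 508 and 563 at 1h and 2717, 2714 and 2186 at 2h (log2 fold change 2.27 ± 0.13 SE, adjusted p = 2.33e-32). Gpr39, a zinc-sensing receptor gene, had 86.7, 82.6 and 82.95 at 1h and 393, 400.5 and 418 at 2h (log2 fold change 2.25 ± 0.20 SE, adjusted p = 2.56e-18). Flrt2, an adhesion molecule gene, had 1706, 1644 and 1529 at 1h and 5878, 6380.4 and 7807 at 2h (log2 fold change 2.03 ± 0.09 SE, adjusted p = 5.12e-39), and Peak1, a pseudokinase gene, had 1000.1, 940.2 and 959 at 1h and 3546, 4076 and 4958 at 2h (log2 fold change 2.10 ± 0.10 SE, adjusted p = 6.93e-37). The third 2h library was the highest of the 3 in Flrt2 and Peak1 and the lowest in Ankrd13b. Sema3c, Sdc1, Ppl, Steap3, Pald1, Nkain1 and Zfp72 completed the 15 largest rises, with log2 fold changes of 1.86 to 2.20.

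PU.1-dependent myeloid genes had 9 of 53 tested members higher and 3 lower at 2h, with a median of 0.01, and the same counts without the third 2h library. That median turned negative in 3 of the 6 analyses that left out 1 library, and without the first 2h library 12 members were higher and 5 lower. Cx3cr1, the fractalkine receptor gene of monocytes and macrophages, had 115.3, 99.5 and 116.1 at 1h and 415, 442 and 482 at 2h (log2 fold change 2.01 ± 0.07 SE, adjusted p = 1.45e-49). Csf2rb, the gene of the beta subunit shared by the GM-CSF, IL3 and IL5 receptors, had 18072, 17880.3 and 18588 at 1h and 42060.1, 44711 and 42862 at 2h (log2 fold change 1.25 ± 0.04 SE, adjusted p = 9.79e-51), and Csf2rb2, its neighbouring mouse paralog for IL3, had 4095, 4158 and 4304 at 1h and 13228, 14109.7 and 13258 at 2h (log2 fold change 1.69 ± 0.05 SE, adjusted p = 2.60e-56). Both rose without overlap, and reads can be shared between them. Ccr2, a monocyte chemokine receptor gene, had 40.6, 50.8 and 42.0 at 1h and 107.6, 95.7 and 101.8 at 2h (log2 fold change 1.18 ± 0.15 SE, adjusted p = 8.94e-12). Adgre1, the gene of F4/80, passed the test at low counts of 8.78, 3.18 and 5.86 and 19.6, 16.5 and 13.4, and edgeR did not call it. Id2 had 673, 699 and 654 at 1h and 1079, 1073 and 1216 at 2h (log2 fold change 0.73 ± 0.12 SE, adjusted p = 7.73e-08), and Cd300a, Btk and Pirb were the other rises. Of the falls, Cybb was at 1 or 2 reads per library at 1h and at 0 at 2h, under the floor, and Vav1 and Csf3r, the GCSF receptor gene, were the others. Itgam (CD11b) had 600.5, 668 and 627 at 1h and 591, 556 and 600.0 at 2h (log2 fold change -0.12 ± 0.06 SE, adjusted p = 0.129). Csf1r, the macrophage colony-stimulating factor receptor gene, was at 2.20, 1.06 and 6.83 at 1h and 4.19, 1.10 and 0 at 2h, and no change was detectable at this depth.

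Of 23 cytokine and growth factor receptor genes, 5 were higher and 2 lower, or 5 and 4 without the first 2h library and 6 and 2 without the third. Besides the beta subunit genes, Ifngr2, an interferon gamma receptor gene, had 419, 391 and 404 at 1h and 935, 985 and 1090.2 at 2h (log2 fold change 1.31 ± 0.07 SE, adjusted p = 6.82e-36), and Tnfrsf1b and Tgfbr1 were higher. Cd69, an early activation marker, was lower, with 339, 362 and 284 at 1h and 119, 122.1 and 146 at 2h (log2 fold change -1.34 ± 0.11 SE, adjusted p = 1.07e-20). Of 31 adhesion and GPCR signalling genes, 7 were higher and 2 lower, or 6 and 2 without the third 2h library: S1pr2, a sphingosine-1-phosphate receptor gene, had 178, 178 and 159.1 at 1h and 305, 320.2 and 301 at 2h (log2 fold change 0.85 ± 0.09 SE, adjusted p = 1.47e-15) while S1pr3, a related receptor gene, had 208.6, 213 and 173.7 at 1h and 65.7, 81.4 and 56.3 at 2h (log2 fold change -1.55 ± 0.29 SE, adjusted p = 2.45e-06), and the prostaglandin receptor gene Ptger4 had 193, 222 and 198.1 at 1h and 78.3, 91.3 and 70.98 at 2h (log2 fold change -1.35 ± 0.19 SE, adjusted p = 6.91e-10). Of 11 primary granule genes, Ctsc, whose product activates granule serine proteases, was higher, with 28.5, 13.8 and 13.7 at 1h and 68.5, 59.4 and 44.2 at 2h (log2 fold change 1.63 ± 0.16 SE, adjusted p = 7.04e-16), and Elane had 115715, 115374 and 118331 at 1h and 114225, 113434 and 100242 at 2h (log2 fold change -0.09 ± 0.07 SE, adjusted p = 0.279).

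Upstream stretches are shown for 2 rises, Ctsc with the letters of a preferred PU.1 site (GAGGAAGT) and Csf2rb2 with those of a STAT dimer site (TTCNNNGAA), since the construct activates PU.1 and IL3 signals through STAT5. Capitals again mark the match on either strand.
Ctsc (chr7:88277910-88278084, plus strand): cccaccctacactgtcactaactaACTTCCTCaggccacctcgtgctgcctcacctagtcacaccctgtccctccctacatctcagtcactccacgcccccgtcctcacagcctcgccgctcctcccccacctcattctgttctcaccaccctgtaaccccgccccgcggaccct
Csf2rb2 (chr15:78305722-78305781, minus strand): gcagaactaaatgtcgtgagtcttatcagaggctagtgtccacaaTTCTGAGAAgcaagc
In Ctsc the match begins 151 bases before the start and lies on the opposite strand, and in Csf2rb2 it begins 15 bases before. The PU.1 letters were held by 2.79% and the STAT letters by 8.13% of all 27025 genes with a window, and by 2.99% and 7.30% of the tested genes. Among the 833 rises with a window the shares were 2.88% and 10.7%, and their comparison is void at this coverage of windows. Other named genes with the PU.1 letters were Noc3l, which was higher, Rel, which was lower, and Elane and Mpo, which were not called. Of the 9 PU.1-dependent genes called higher, 7 had a window, 1 of these held the PU.1 letters (Pirb) and 1 the STAT letters (Csf2rb2). These 2 stretches were also chosen after the matches were seen, and whether either site acts on its gene was not tested.

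Ribosome biogenesis factors were the list with the highest median, 0.31, and 10 of 44 were higher and 0 lower, or 13 and 0 without the third 2h library. Noc3l, a factor of large-subunit assembly, had 350.2, 306 and 321 at 1h and 735, 711 and 829 at 2h (log2 fold change 1.22 ± 0.10 SE, adjusted p = 1.94e-19). In undifferentiated cells Noc3l had 555, 567 and 525, and the list's median log2 fold change from there to 1h was -0.16. Polr1b, the gene of the second largest subunit of RNA polymerase I, had 674, 727 and 654 at 1h and 1238, 1283 and 1308 at 2h (log2 fold change 0.90 ± 0.09 SE, adjusted p = 5.26e-17), Heatr1 had 1479, 1521 and 1412 at 1h and 2342, 2444 and 2855 at 2h (log2 fold change 0.79 ± 0.07 SE, adjusted p = 4.26e-17) and Gnl3, which encodes nucleostemin, had 1388, 1344 and 1367 at 1h and 2253, 2293 and 2527 at 2h (log2 fold change 0.79 ± 0.09 SE, adjusted p = 2.62e-13). Nucleolin, encoded by Ncl, had 19577, 19252 and 18459 at 1h and 19696, 19404 and 23321 at 2h (log2 fold change 0.12 ± 0.06 SE, adjusted p = 0.0897). None of the 77 cytosolic ribosomal protein genes was a DEG by limma, and their median was -0.02. Rps6 stood at 28321, 28174 and 28472 at 1h and 29311, 28639.7 and 27843 at 2h (adjusted p = 0.867).

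Among hematopoietic transcription factors, Tal1 had 2124, 2068 and 2185 at 1h and 4015, 4169 and 3991 at 2h (log2 fold change 0.93 ± 0.04 SE, adjusted p = 7.68e-41) and Ikzf1 had 1229, 1245 and 1170.1 at 1h and 2127, 2141 and 2337 at 2h (log2 fold change 0.86 ± 0.05 SE, adjusted p = 2.01e-33), and with Lyl1 they made up the 3 rises of 21 progenitor factor genes. The largest fall of a progenitor factor with high counts was that of Sox4. It had 11166, 11654 and 10524 at 1h and 5212, 4478 and 4057 at 2h (log2 fold change -1.28 ± 0.11 SE, adjusted p = 2.66e-20), and Runx3, near the floor, was the other fall, a call that was lost with edgeR (adjusted p = 0.128), with DESeq2 and with the compared groups alone. The list had 3 higher and 3 lower without the third 2h library. With all libraries, 6.33% of all genes tested were higher and 8.83% lower. Of 15 ETS genes, Ets2, itself an immediate-early gene, had 4414, 4400.2 and 4574 at 1h and 2197, 2161 and 2025 at 2h (log2 fold change -1.07 ± 0.05 SE, adjusted p = 1.09e-36), Erg had 1318, 1266 and 1298 at 1h and 756, 775 and 814 at 2h (log2 fold change -0.73 ± 0.07 SE, adjusted p = 2.09e-18) and Elf2 had 1012, 1041 and 971 at 1h and 1525, 1540.4 and 1705 at 2h (log2 fold change 0.66 ± 0.04 SE, adjusted p = 4.02e-27). Spi1, the gene of PU.1, had 8887, 8823 and 9139 at 1h and 12001, 12147 and 10868 at 2h (log2 fold change 0.38 ± 0.05 SE, adjusted p = 1.85e-11). The 2h libraries lay above the 1h libraries, but the change stayed under the fold-change threshold. The PU.1 part of the construct has Spi1 sequence, so that this level does not check the deletion. Of 10 interferon regulatory factor genes, Irf1 and Irf9 were higher and Irf7 lower (not without the third 2h library). Irf1 fell below the fold-change threshold without the first 2h library (log2 fold change 0.57) and without the second 1h library (0.54). Irf8 was at 5.49, 5.29 and 4.88 and 8.39, 7.70 and 6.70 (log2 fold change 0.46 ± 0.42 SE, adjusted p = 0.422). Gfi1 had 642, 645 and 657 at 1h and 532, 550.1 and 470.1 at 2h (log2 fold change -0.33) and Zeb2 had 8024, 7936 and 7503 at 1h and 7927, 8068 and 9718 at 2h (log2 fold change 0.13), neither past the threshold of size.

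Some groups held no DEG by limma. Cebpa had 20704, 20040.2 and 20075 at 1h and 26179, 23503 and 16881 at 2h and Cebpb had 13967, 13613 and 12906 at 1h and 17365, 15159 and 10157 at 2h, and of 7 C/EBP family genes none was called. In both, the third 2h library was lower than every other library. The 7 Notch and Wnt targets tested, the 11 NRF2 targets, the 19 endoplasmic reticulum chaperone genes and the 13 mitochondrially encoded genes were not called either, apart from 2 NRF2 targets called higher without the third 2h library. Of the 7 Notch and Wnt targets, 6 had a mean under 50 at both time points, so that changes can be missed at this depth. Hspa5 had 66099.5, 63500.0 and 66375 at 1h and 55577, 55609 and 54399.6 at 2h (log2 fold change -0.24) and Hmox1 had 12520.0, 11888 and 12944 at 1h and 18785, 19361 and 17197 at 2h (log2 fold change 0.57 ± 0.10 SE), just under the threshold of size. Myc had 4835, 5095 and 5279 at 1h and 4409, 4599 and 3821 at 2h (log2 fold change -0.25), and of 10 genes of its network Mxi1, a Myc antagonist, was lower, with 3443, 3376 and 3383 at 1h and 1867, 1839 and 1692 at 2h. Of 21 ATF4 targets Sesn2 and Pck2 were lower, the latter not without the third 2h library, of 7 aryl hydrocarbon receptor targets Tiparp was lower with a change at the threshold of size, lost in 5 alternative analyses (log2 fold change -0.58), and of 14 SRF and cytoskeleton genes Srf and Mcl1 were lower, while Actb had 99346, 96223 and 102718 at 1h and 85673, 87573 and 76151 at 2h (log2 fold change -0.26) and Vcl had 3317, 3298 and 3404 at 1h and 3189, 3380.0 and 3654 at 2h (log2 fold change 0.03).

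Leaving out 1 library moved the count of a list by over 1.5 times and by more than 1 gene in 4 lists (chemokines and cytokines, PU.1-dependent genes, receptors and NRF2 targets, values above). In the other lists such moves were of 1 gene.

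**Figure D3:**
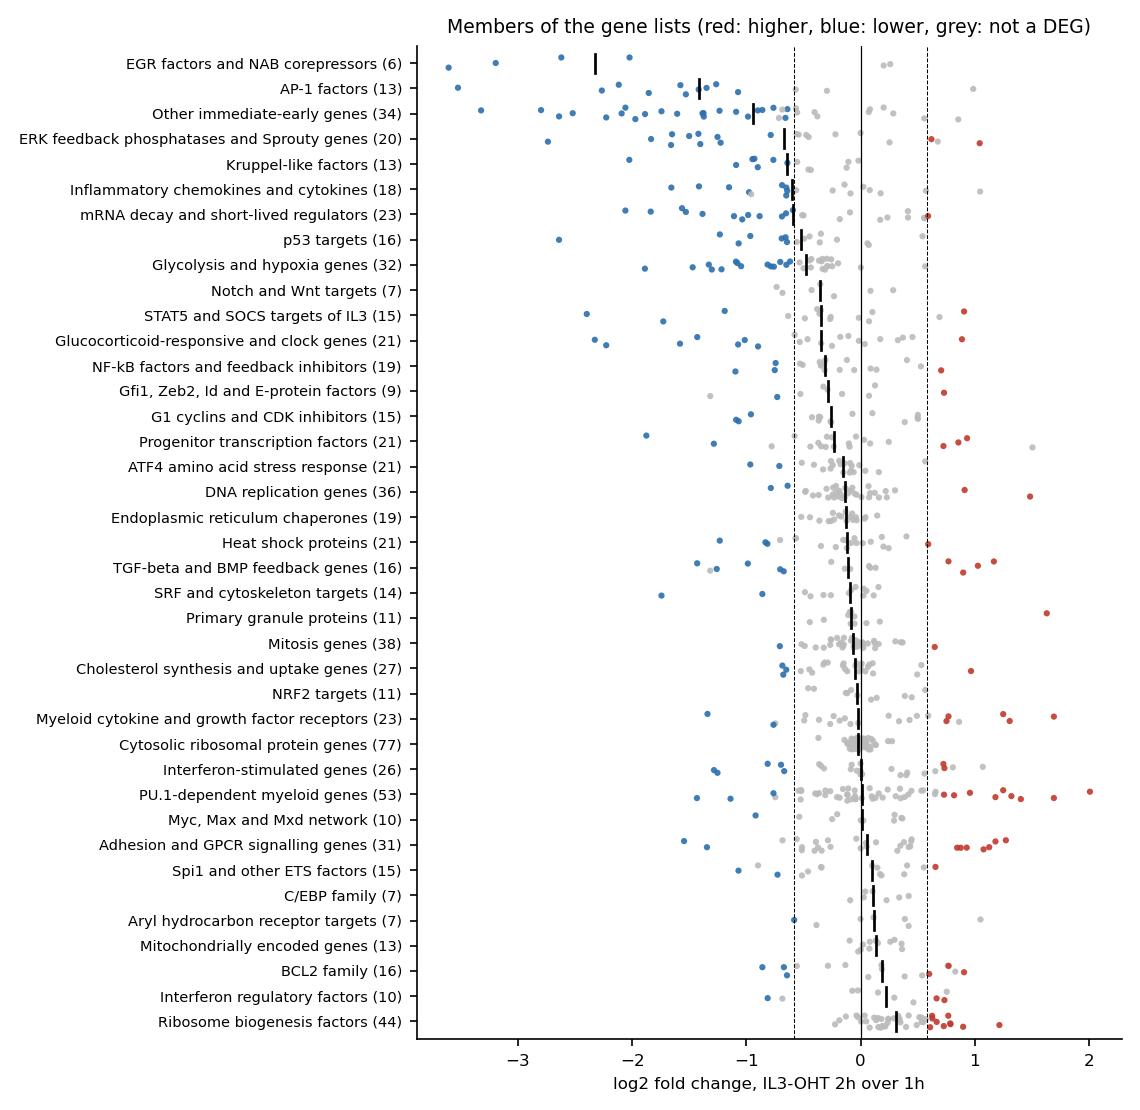
Log2 fold change (x axis, IL3-OHT 2h over 1h) of each tested member of the 39 functional gene lists, ordered by the list's median (black bar), with the number of tested members in parentheses. Red and blue points are genes called higher and lower, dashed lines mark the fold-change threshold of 0.58, and lists overlap in some members. The EGR, AP-1 and other immediate-early lists lie at the top with medians of -2.32 (-1.64 with a pseudocount of 5), -1.42 and -0.94, and ribosome biogenesis factors at the bottom with 0.31.

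The cells carried myeloid progenitor markers at both time points, although 1 of the 10 listed had at most 3 reads in each of the 6 libraries. The summed level of the 10 markers was 244805 to 258301 at 1h and 235944 to 273862 at 2h. Elane made up a large part of this sum, and Csf2rb, which rose, also counts in it. Mpo had 4196, 3952 and 4394 at 1h and 3527, 3515 and 3009 at 2h (log2 fold change -0.32). Of 11 macrophage and monocyte markers tested, of 15 listed, Cx3cr1, Ccr2 and Adgre1 were higher and 0 lower, while the summed level of the list was 41447 to 45257 at 1h and 33606 to 40734 at 2h. Csf1r was near or under the floor, as given above. In these bulk samples, a change in the share of a cell type and a change of RNA per cell cannot be told apart. Of 11 neutrophil markers, Mmp9 was lower, with 23.1, 21.2 and 20.5 at 1h and 13.98, 15.4 and 8.04 at 2h. Its call was lost in 4 alternative analyses: without the third 2h library, with the compared groups alone, with edgeR and with DESeq2. Mast cell, erythroid and megakaryocyte markers summed to 167.4 to 423 in each library, and of these Gp9 was called lower with overlapping groups, a call lost in 4 alternative analyses. Without the third 2h library 1 mast cell marker was lower and 0 erythroid and megakaryocyte markers were. Markers of B cells, T and NK cells and fibroblasts each summed to less than 74.2, with none called except 1 T and NK cell marker, higher without the third 2h library. Their part in the results above was not tested.

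The neighbouring steps share libraries with this one, so that their values are set side by side and not compared. From undifferentiated cells to 1h, 770 genes were DEGs (4.42%), 489 higher (2.81%) and 281 lower (1.61%). From 2h to 3h 1464 were DEGs (8.41%), 535 higher (3.07%) and 929 lower (5.33%). Fosb was at 10336 ± 138.5 (SD, n = 3) in undifferentiated cells, 18821 ± 777 at 1h, 1635 ± 103.4 at 2h, 390.4 ± 17.7 at 3h and 124 ± 13.4 at 8h. Egr3 was at 757 ± 62.8, 992 ± 32.7, 82.9 ± 23.1, 33.1 ± 2.48 and 22.1 ± 5.002. Both were thus abundant before OHT, had their highest mean at 1h among these 5 times, and stayed low after 2h. Dusp6 kept a level of 4231 ± 91.6 at 4h, and Cdkn1a, at 7728 ± 426 at 2h, was at 15922 ± 936 at 8h, against 14613 ± 236 at the start. The rises differed in their course. Cx3cr1 was at 61.9 ± 1.77 in undifferentiated cells, 447 ± 33.7 at 2h and 1722 ± 48.5 at 8h, while Gpr39 went from 404 ± 12.9 at 2h through 486 ± 32.6 at 3h to 110.04 ± 9.66 at 8h.

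**Figure D4:**
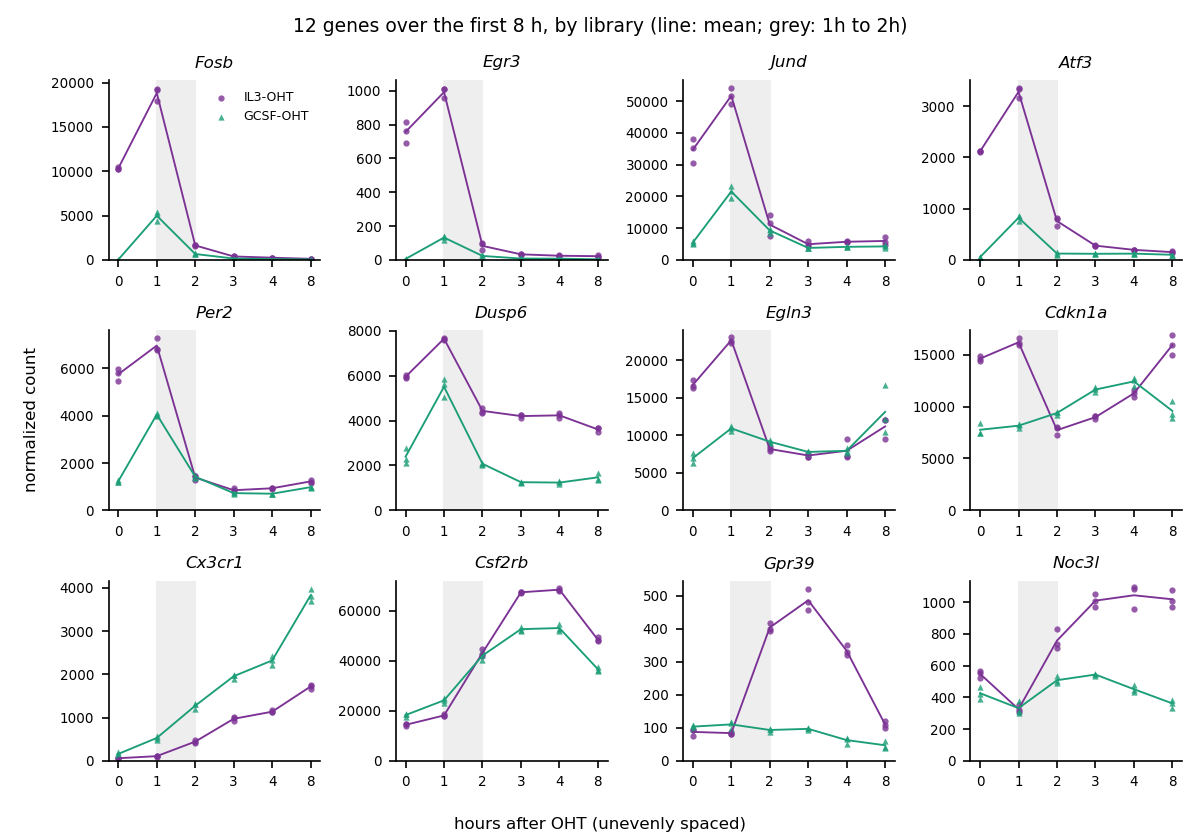
Normalized counts (y axis, from 0) of 12 genes by library against hours after OHT (x axis, unevenly spaced), purple circles for IL3-OHT and green triangles for GCSF-OHT, with a line through the means and the hour from 1h to 2h in grey. Time 0 is undifferentiated cells for IL3 and cells after the GCSF pre-treatment for GCSF. Fosb, Egr3, Jund, Atf3 and Per2 drop in the grey hour in both conditions, Cx3cr1 and Csf2rb rise in both, and Gpr39 rises in IL3 from 84.1 to 404 while it is at 110.5 and 93.6 in GCSF.

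Later libraries, which the step does not share, allow its genes to be followed. At IL3-OHT 4h against undifferentiated cells, 1503 of the 17414 genes were higher (8.63%) and 2347 lower (13.5%). Of the 1103 genes higher at 2h than at 1h, 477 were higher at 4h than in undifferentiated cells (43.2%) and 25 lower. Of the 1537 lower at 2h, 778 were lower at 4h (50.6%) and 25 higher. Fosb, Egr3 and Bnip3 were lower at 4h, with log2 fold changes against undifferentiated cells of -5.36, -4.89 and -4.01. Egr1 and Jun did not differ from undifferentiated cells by this test, at -0.13 (adjusted p = 0.600) and -0.08 (adjusted p = 0.487), and Fos was higher, at 0.72. Cx3cr1, Csf2rb2 and Ctsc were at 4.18, 3.78 and 3.70. Flrt2, which rose by 2.03 from 1h to 2h after a change of -1.38 in the hour before, was at -0.30. Of the 44 ribosome biogenesis genes, 32 were higher at 4h than in undifferentiated cells and 0 lower, and of the 32 glycolysis and hypoxia genes 25 were lower and 0 higher.

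The same hour was sampled in cells held in 10 ng/mL of GCSF for 48 h and then given 100 nM of OHT, with 3 libraries at 1h and 3 at 2h that the IL3 step does not share. The cytokine and the OHT dose differ together, so that they cannot be told apart. In GCSF, 903 genes were DEGs (5.19%), 503 higher at 2h (2.89%) and 400 lower (2.3%). Of the 1103 rises in IL3, 267 were higher in GCSF too (24.2%, and 53.1% of the 503) and 4 lower. Of the 1537 falls, 241 were lower in GCSF too (15.7%, and 60.2% of the 400) and 10 higher. Across the 17414 genes, the log2 fold changes of the 2 steps had a Pearson r of 0.31 and a Spearman rho of 0.35, which describe these libraries, since genes are not independent replicates.

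Genes that fell in both included Fosb (log2 fold change -3.53 in IL3 and -2.90 in GCSF), Atf3 (-2.12 and -2.74), Per1 (-2.23 and -2.16) and Plk3 (-2.80 and -2.93). The differences between the steps of Fosb, Per1 and Plk3 did not pass the test (adjusted p = 0.0737, 0.893 and 0.869). The counts behind them were unequal, since Fosb was at 18821 ± 777 at 1h in IL3 and at 4987 ± 529.9 in GCSF. In GCSF the 2h libraries of Fosb (625, 733 and 643) were above those before OHT (41.6, 33.6 and 39.1). In IL3 its 2h libraries were below those before OHT (10493, 10285 and 10230). Genes that rose in both included Csf2rb2 (log2 fold change 1.69 in IL3 and 1.41 in GCSF), Cx3cr1 (2.01 and 1.27), Flrt2 (2.03 and 1.81) and Ifngr2 (1.31 and 1.07). Of the PU.1-dependent list, 8 of 53 were higher and 0 lower in GCSF, and of the AP-1 list 0 of 13 were higher and 8 lower.

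The difference between the steps passed the same thresholds for 1113 genes (6.39%), 353 with the larger log2 fold change in IL3 (2.03%) and 760 with the smaller (4.36%). Without the third 2h library in IL3 the number was 1097. Among the 1537 falls in IL3, 535 were lower by this test than in GCSF, and among the 1103 rises 253 were higher, and both counts rest on the IL3 libraries that also gave the falls and rises. Gpr39 rose in IL3 and stood at 110.5 ± 11.04 and 93.6 ± 4.06 in GCSF (difference 2.48, adjusted p = 4.63e-12). The log2 fold change of Cdkn1a was -1.07 in IL3 and 0.20 in GCSF (difference -1.27, adjusted p = 7.04e-20). That of Egln3 was -1.47 and -0.26 (difference -1.22, adjusted p = 1.52e-07), and that of Tob1 -1.56 and -0.49 (difference -1.07, adjusted p = 2.24e-30). Dusp10 fell less in IL3 than in GCSF, with log2 fold changes of -1.66 and -3.02 (difference 1.36, adjusted p = 7.84e-04). Of the glycolysis and hypoxia list, 0 genes were higher and 3 lower in GCSF, and of the p53 targets 1 was higher and 0 lower.

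**Figure D5:**
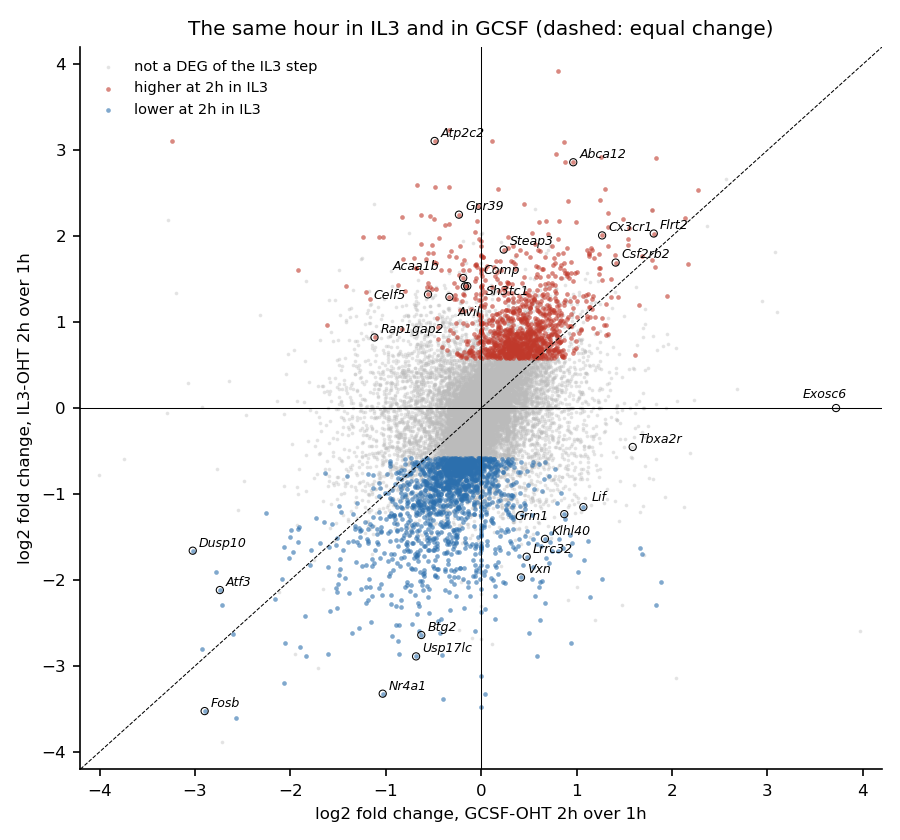
Log2 fold change from 1h to 2h in IL3 (y axis) against that in GCSF (x axis) for the genes tested, red for genes called higher and blue for genes called lower in IL3, with the line of equal change dashed and 4 genes outside the axes. Flrt2 lies near the line, Atf3 and Dusp10 lie above it on the left, and Atp2c2, Gpr39 and Exosc6 lie far from it.

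Genes of different length were called in different shares. Spans came from GENCODE vM21 (GRCm38) and were known for 97.2% of the genes tested. The median span was 17147 bp over all genes tested, 21895 bp for the rises and 20724 bp for the falls, and among protein-coding genes these were 21879, 23460 and 23644 bp. Of 1736 protein-coding genes of at least 100000 bp, 15.3% were lower at 2h and 6.85% higher, and their median log2 fold change was -0.16. In the 4 shorter classes 8.30% to 9.70% were lower, and 4.01% of the 897 genes under 3000 bp were higher, against 6.20% to 7.70% of the genes from 3000 to 100000 bp. Genes are not independent replicates, and these shares are descriptions.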

How the data were processed

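The step rests on 6 of 165 libraries, assigned to condition, time point and replicate by their labels. The authors quantified transcripts with Salmon (GRCm38) and scaled each library by the median-of-ratios factor of DESeq2, so that the deposited values are a normalized signal per gene, the normalized counts of 36255 genes. The way from transcripts to genes and the strand setting were not given in the sources used here. The table holds 0 ERCC rows. Dividing by the value of 1 read gave whole reads for 100% of nonzero values (within a relative deviation of 9.66e-15).

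The test was limma 3.58.1 (eBayes, trend on mean expression), applied to log2(normalized count + 1) with 1 mean for each of 54 groups (159 libraries, without IL3-OHT 96h and 144h), so that all groups shared an estimate of the spread. Genes with a value of at least 5 in at least 1 library entered (17414). DEGs were called at a Benjamini-Hochberg adjusted p below 0.05 with a log2 fold change beyond 0.58 in either direction. Fold changes are on the log2(value + 1) scale and understate those of low genes. Differences between the IL3 and GCSF steps were a contrast of the same fit. Alternatives were pseudocounts of 0.5 and 5, no filter or a mean of at least 10, upper-quartile and TMM scaling, the replicate number as a block, the compared groups alone, each replicate left out, and edgeR 4.0.16 and DESeq2 1.42.0 on whole reads. The limma fit of the step was also run on simulated counts with known changes, without an outlying library. The other comparisons, the lists and the motif counts were not tested in this way.

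The genes named with values were the 15 largest rises and falls among DEGs with a mean of at least 50 in 1 group, non-overlapping groups and a symbol that is not a predicted or clone name, the lead genes and up to 4 most changed DEGs of each list, and the 10 largest differences in each direction between the IL3 and GCSF steps. Further called members are named without a rule, to account for a count, and 3 named genes are not reported here. Members and lists were chosen with earlier results of these data known. Spans came from GENCODE vM21 and promoter windows from RefSeq (GRCm38.p6), which gave a window for 66.9% of the genes tested.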

Additional observations from a re-analysis of the deposited data

Results flagged for a closer look

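Differences between the IL3 and the GCSF step passed the test for 1113 genes, and the 10 largest in each direction by the rule for named genes are given here as differences of log2 fold changes (IL3 minus GCSF). The cytokine and the OHT dose differ together between the conditions, and their part was not tested.

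The larger changes in IL3 were those of Atp2c2 (3.60), Gpr39 (2.48), Rap1gap2 (1.94), Abca12 (1.89), Celf5 (1.88), Acaa1b (1.70), Avil (1.63), Steap3 (1.61), Sh3tc1 (1.59) and Comp (1.56). Atp2c2 was at 6.24 ± 0.826 (SD, n = 3) and 61.2 ± 4.73 in IL3 and at 5.79 ± 0.742 and 3.95 ± 1.49 in GCSF. Steap3, a ferrireductase gene, was at 289 ± 39.6 and 1035 ± 58.99 in IL3 and at 403 ± 5.26 and 476 ± 31.6 in GCSF.

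The smaller changes, or larger falls, in IL3 were those of Exosc6 (-3.72), Vxn (-2.39), Nr4a1 (-2.29), Lif (-2.22), Usp17lc (-2.21), Lrrc32 (-2.21), Klhl40 (-2.19), Grin1 (-2.10), Tbxa2r (-2.04) and Btg2 (-2.01). Exosc6 had 0 reads in each of the 6 IL3 libraries, so its value is a change in GCSF alone, where the mean was 2.19 ± 3.79 at 1h and 86.97 ± 75.3 at 2h. Btg2 was at 183.4 ± 16.8 and 29.3 ± 8.84 in IL3 and at 14.5 ± 3.60 and 8.82 ± 0.675 in GCSF. Lif was at 137.4 ± 10.3 and 61.4 ± 5.604 in IL3 and at 15.6 ± 0.0822 and 34.1 ± 5.88 in GCSF.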

How the results depend on the processing

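The counts of DEGs of the step, of its difference from the GCSF step and of 4h against undifferentiated cells were run in the alternatives. Each stayed within 1.5 times its value. The counts of the GCSF step, of the first hour and of the step from 2h to 3h were not run in them. For the step from 1h to 2h the totals with 1 replicate left out ran from 2439 to 2746, limma on the compared groups alone called 942 genes higher and 1322 lower, edgeR called 993 and 1376 and DESeq2 991 and 1325. Between 80.0% and 99.8% of the 2640 DEGs were called in each alternative, and 0 turned sign. The numbers of the replicates were not found to pair the samples (correlations of deviations of 0.07, -0.44 and -0.11 between same-numbered libraries over 10762 genes). Between differently numbered libraries these correlations ran from -0.35 to 0.48, and the source of the larger ones was not tested. With the replicate block, 2643 genes were called for the step, 1121 for the difference between IL3 and GCSF and 3848 for 4h against undifferentiated cells. Of the named genes called, 25 lost the call in at least 1 of the 16 alternatives and 0 turned sign. The sign turned in 9 named genes that were not called, and the cause was not tested. Upper-quartile scaling gave 0.0050 for Chac1 and 0.00088 for Tsc22d3. Gata2 came to 0.024 with a pseudocount of 5, 0.17 with edgeR and 0.17 with DESeq2. With 1 replicate left out, the log2 fold changes ran from -0.025 to 0.29 for Cebpa, -0.12 to 0.27 for Cebpb, -0.13 to 0.12 for Chac1, -0.48 to 0.67 for Gata2, -0.0043 to 0.033 for Rps6, -0.18 to 0.0060 for Tnf, -0.069 to 0.076 for Tsc22d3, -0.025 to 0.074 for Vcl and -0.0095 to 0.060 for mt-Co1. The low-count calls are limited by depth, since the floor of 3 reads is a normalized count of 2.93 to 4.19 in these libraries.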

Other observations

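Genes with a symbol of Zfp and digits, most of which encode zinc-finger proteins, with few exceptions (such as Zfp36) belonged to no list and were looked at after their values were seen. Of 338 tested, 88 were higher at 2h and 23 lower, where 6.33% of all genes tested were higher and 8.83% lower, and their median log2 fold change was 0.31. In the GCSF step, 43 of them were higher and 5 lower, where 2.89% of all genes tested were higher and 2.3% lower. At IL3-OHT 4h against undifferentiated cells 56 were higher and 22 lower, where 8.63% of all genes tested were higher and 13.5% lower. The naming of this group by its symbols, with values in view, gives it no test.

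Predicted genes were left out of the named genes by their symbols. A member of that class, chosen after its values were seen, had a wide spread at 1h. Gm10222 had normalized counts of 0, 0 and 601 at 1h and 314, 1165 and 1864 at 2h and was called higher by limma (adjusted p = 0.0197). Its 1h libraries ranged from 0 to a value above one of the 2h libraries.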
